A study of Mus musculus with 2 samples.

Results

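The adrenergic receptors of mouse were examined in RNA held on the ribosomes of Drd2-expressing cells of the medial prefrontal cortex. The family list named 8 genes, Adra1a, Adra1b, Adra1d, Adra2a, Adra2b, Adra2c, Adrb1 and Adrb3. A gene was measured where a probe set named that gene alone in the platform annotation. This rule found 2 of the 8 genes, Adra1b and Adra2c, with 1 probe set each, among 22180 genes named in the same way. The other 6 genes, among them both beta receptors, were not analysed here. The mice carried D2Cre, a recombinase driver for Drd2, and RiboTag, an allele that gives Cre-expressing cells a haemagglutinin-tagged ribosomal protein, so that their ribosomes can be pulled down from a lysate. Drd2 encodes the dopamine D2 receptor, and the labels call the captured cells neurons. The design held 1 group of 2 arrays. The labels call them technical replicates and give each as coming from pooled cortices of 5 adult mice, here taken to be a single pool. No unprecipitated cortex, no Cre-negative precipitation and no treatment was analysed here, so the values describe signal and not enrichment.

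Noradrenaline reaches the cortex along axons of the locus coeruleus and acts on receptors of the alpha-1, alpha-2 and beta classes. Alpha-1 receptors couple to Gq proteins, which activate phospholipase C and release calcium from stores. Alpha-2 receptors couple to the Gi/o proteins that the dopamine D2 receptor also uses, which lower cyclic AMP and open potassium channels, and beta receptors couple to Gs, which raises cyclic AMP. In the prefrontal cortex noradrenaline is known for its part in working memory and attention. Adra1b encodes the alpha-1B receptor and Adra2c the alpha-2C receptor, a subtype also known from striatum.

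The stretches upstream of the annotated starts are shown because the choice of members did not use them. They come from RefSeq, build GRCm38.p6, cover the 250 bases before each start, and are written 5′ to 3′ on the strand of the gene. Both measured genes matched, Adra2c with 1 start and Adra1b with 2 starts that lie 64.7 kb apart. Capitals mark matches to the motifs searched on both strands, and a match describes letters, not binding.
Adra2c, chr5:35278316-35278565, plus strand: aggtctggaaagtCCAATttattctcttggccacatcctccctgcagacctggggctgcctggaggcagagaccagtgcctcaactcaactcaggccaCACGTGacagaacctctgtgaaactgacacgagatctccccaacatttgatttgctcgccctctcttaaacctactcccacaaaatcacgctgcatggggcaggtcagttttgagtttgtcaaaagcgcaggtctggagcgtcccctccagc
Adra1b, upper start, chr11:43901238-43901487, minus strand: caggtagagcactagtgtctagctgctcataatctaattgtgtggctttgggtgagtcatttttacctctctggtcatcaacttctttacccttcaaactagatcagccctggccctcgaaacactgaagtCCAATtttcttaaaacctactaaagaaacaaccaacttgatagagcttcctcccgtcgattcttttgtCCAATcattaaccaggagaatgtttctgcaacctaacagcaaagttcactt
Adra1b, lower start, chr11:43836490-43836739, minus strand: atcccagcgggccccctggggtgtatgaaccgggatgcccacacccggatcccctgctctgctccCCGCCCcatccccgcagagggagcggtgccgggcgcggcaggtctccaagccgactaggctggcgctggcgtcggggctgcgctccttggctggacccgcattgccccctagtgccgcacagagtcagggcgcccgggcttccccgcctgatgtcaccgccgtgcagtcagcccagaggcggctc

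The stretch before the upper Adra1b start was poor in G and C, at 41.6%, and held 3 CpG pairs. The stretch before the lower Adra1b start stood at 72.8% and held 22 CpG pairs, a number that 14.8% of all 32851 promoter stretches of this length reached. Adra2c lay between them at 53.6% with 6 CpG pairs, and the median over all stretches was 52.4% and 6 pairs. The CCAAT box, CCAAT, occurred 1 time before Adra2c and 2 times before the upper Adra1b start, and 33.8% of all stretches held it. The GC box, GGGCGG or its reverse complement CCGCCC, occurred 1 time before the lower Adra1b start, against 32.7% of all stretches. The E-box CACGTG occurred 1 time before Adra2c, against 6.02%. The letters of the TATA box, TATAAA, of the cyclic AMP response element, TGACGTCA, and of its shorter form TGACG, which the longer motif contains, were found in none of the 3 stretches, against 12.4%, 1.55% and 17.8% of all stretches. Which of the Adra1b starts the transcripts on the array came from was not analysed here.

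Both measured adrenergic receptors gave signal above background. All values are log2 signals of the deposited table, a scale inferred from their range. Sensory receptor genes of nose and vomeronasal organ, 1390 in number, stood in for genes not expected in cortex, and their 95th percentile on each array was taken as background. A gene was called above it where it exceeded 5.62 on replicate 1 and 5.67 on replicate 2. Of all 22180 named genes, 60.3% passed this rule, and 64.1% of those that are not sensory receptors, so a count of 2 of 2 is not a result about the family. Both also lay over the median of all probe sets, as did 57.5% of named genes. The median of the measured receptors was 7.06, beside 6.36 over all named genes.

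Adra1b stood at 7.41 on replicate 1 and 7.22 on replicate 2, with a mean of 7.32 ± 0.13 (SD, n = 2 technical arrays). It exceeded background by 1.79 and 1.55 log2 units, and both arrays lay clear of the threshold. On replicate 1, 2 of the 1390 sensory receptor genes were higher than Adra1b, and on replicate 2, 5 were, which is 0.144% and 0.360% of them. The alpha-1B receptor signal thus lay in the extreme upper tail of the background genes without leaving it.

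Adra2c stood at 6.83 and 6.79, with a mean of 6.81 ± 0.03 (SD, n = 2 technical arrays). It exceeded background by 1.21 and 1.12 log2 units, again on both arrays. Here 7 sensory receptor genes on replicate 1 and 12 on replicate 2 were higher, or 0.504% and 0.863%. Signals of different probe sets are not ranked against each other, because binding strength varies from probe to probe, so the alpha-1B and alpha-2C values do not say which receptor had more messenger.

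Drd2, the gene whose driver marks the captured cells, was read beside the receptors. It stood at 10.78 and 10.70, or 5.16 and 5.03 log2 units over background, and 0 of the sensory receptor genes were higher on either array. Its margin says that this messenger gave signal far above background, and it is no scale for the receptors. Without an unprecipitated or Cre-negative sample, it cannot show that Drd2-expressing cells were captured.

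The calls differed once the threshold was raised. With the 99th percentile in place of the 95th, 6.64 on both arrays, which 44.9% of all named genes passed, both receptors passed, Adra1b by 0.77 and 0.58 and Adra2c by 0.19 and 0.15. A second threshold came from 30 measured genes known from skeletal muscle, liver or testis, whose 95th percentile of 7.29 and 7.15 is called the out-of-tissue threshold and was passed by 37.6% of all named genes. Adra1b exceeded it by 0.12 and 0.07, both less than its own SD of 0.13 over the 2 technical arrays. Adra2c lay under it, with margins of -0.46 on replicate 1 and -0.36 on replicate 2. Of these 30 genes, 8 passed the background rule used above, and the liver gene Apoa2, at 7.09 and 6.67, was among them. The 2 above the out-of-tissue threshold were Odf1, at 7.46 and 7.54 from probe sets averaging 4.98 and 10.02, and Acta1, at 7.89 and 8.08. Without this pair, a choice made after the values were seen, the threshold fell to 6.41 and 6.40, 48.2% of all named genes passed, and both receptors passed, Adra1b by 0.91 and Adra2c by 0.40 on average. Whether Adra2c passed thus turned on 2 of the 30 genes.

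**Figure D1:**
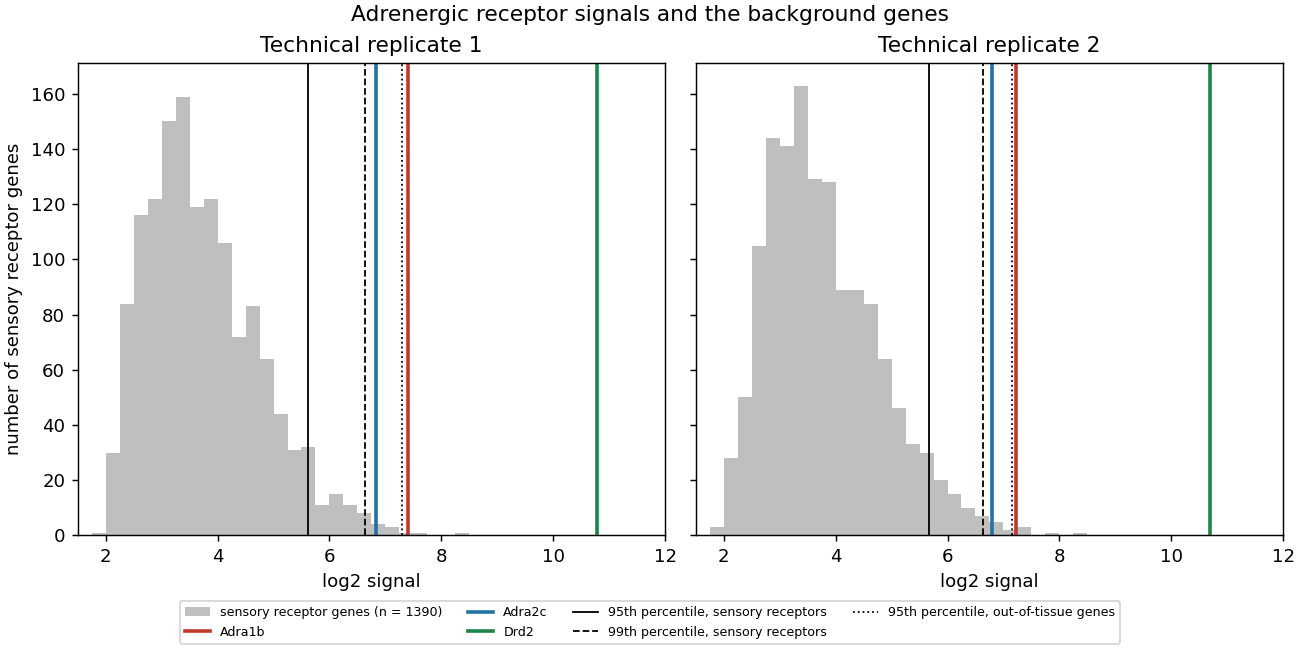
Histograms of log2 signal (x axis) for the 1390 sensory receptor genes (y axis, number of genes), with 1 panel per technical replicate. Coloured lines mark Adra1b, Adra2c and Drd2 and black lines the thresholds. Both receptors lie right of the 95th and 99th percentiles, only Adra1b lies right of the out-of-tissue threshold, and Drd2 lies beyond all background genes.

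The arrays repeated both receptors about as well as other probe sets of like signal. Adra1b was higher on replicate 1 by 0.19. Of the 3435 probe sets with a mean signal from 7 to 8, where the SD of the difference was 0.171, 24.9% differed by at least as much. Adra2c was higher on replicate 1 by 0.04. Of the 4679 probe sets from 6 to 7, with an SD of 0.213, 85.2% differed by at least as much. Neither difference stands out from the technical spread. With both arrays taken to come from a single pool, this spread says nothing of variation between animals. Which steps of the handling it covers was not analysed here. Each receptor had 1 probe set, so no second probe set could be set beside it.

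**Figure D2:**
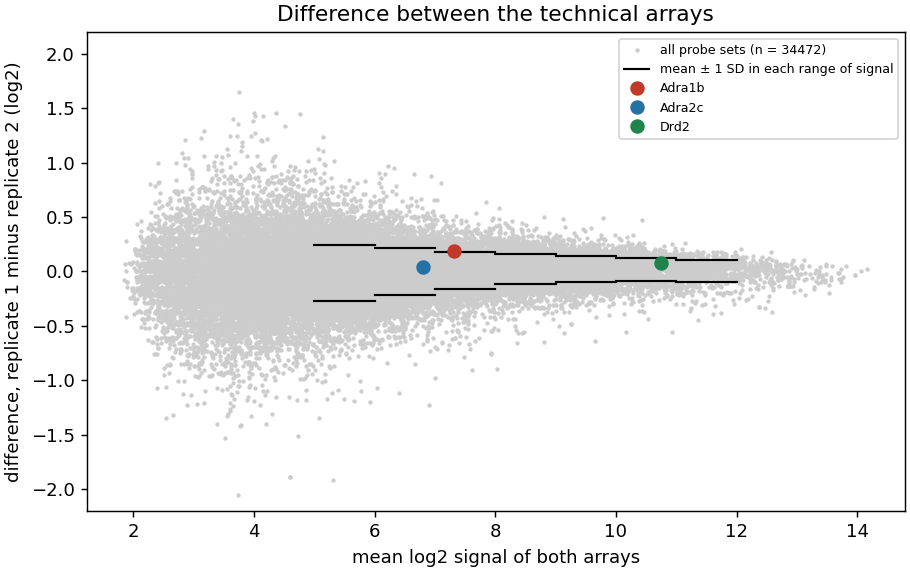
Difference between the arrays (y axis, replicate 1 minus replicate 2, log2) against mean log2 signal (x axis) for all 34472 probe sets in grey, with Adra1b, Adra2c and Drd2 in colour. Black bars mark the mean ± 1 SD in ranges of signal 1 unit wide from 5 to 12. Adra2c and Drd2 lie inside the bars, and Adra1b at 0.19 lies just above them.

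The G proteins and effectors through which alpha-1 receptors act were partly measured far above background and partly at it. Of 14 listed genes, 12 were measured and 10 were above background, with a median of 7.95, beside 60.3% and 6.36 for all named genes. The Gq family subunits Gnaq and Gna11 stood at 11.11 and 11.09 and at 11.19 and 11.24 on the arrays. Gna14, another subunit of that family, stood at 5.75 and 5.93, only 0.20 over background on average. The phospholipase Plcb2, at 5.78 and 5.52, and the calcium release channel gene Itpr3, at 5.51 and 5.82 from probe sets averaging 5.47 and 5.85, each passed on 1 array only. At the out-of-tissue threshold the count fell to 6 of 12, beside 37.6% of all named genes.

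Partners of alpha-2 receptors were nearly all above background. Of 13 listed genes, 12 were measured and 11 passed, with a median of 10.07, beside 60.3% and 6.36 for all named genes. As many, 11, passed the higher out-of-tissue level, beside 37.6% of all named genes. Kcnj3 did so by the mean of probe sets averaging 6.64 and 10.475, the lower of which lay under that level. The inhibitory G protein subunits Gnai1, Gnai2 and Gnai3 stood at 11.23 and 11.20, at 10.17 and 9.99 and at 8.20 and 8.17. Kcnj5, a subunit of G-protein-gated potassium channels best known from heart, passed on replicate 1 only, at 5.64 and 5.41. These partners also serve the D2 receptor and other receptors, so their signal is not specific to adrenergic signalling.

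Genes of the Gs pathway, which beta receptors share with other receptors, gave signal although no beta receptor was analysed. Of 17 listed genes, 16 were measured and 15 passed, with a median of 9.71, beside 60.3% and 6.36 for all named genes. The out-of-tissue threshold was passed by 12, beside 37.6% of all named genes. Gnal, an olfactory and striatal form of the stimulatory subunit, stood at 10.79 and 10.76. Gnas, the general stimulatory subunit from a locus with several overlapping transcripts, stood at 5.96 and 5.90, only 0.29 over background on average. Adenylyl cyclase Adcy1 was at 10.90 and 10.84, whereas Adcy4 was not above background, at 5.41 and 5.33.

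Genes that switch off or hold adrenergic receptors were above background in 11 of 12 measured cases of 14 listed, with a median of 9.64, and 11 also passed the out-of-tissue threshold. They are shared by many G-protein-coupled receptors. Rgs2 passed both levels only by the mean of probe sets averaging 5.075 and 11.04, the lower of which lay under background. The receptor kinase Grk3, earlier named a beta-adrenergic receptor kinase, stood at 9.12 and 9.07, and Grk5 at 7.49 and 7.46. Grk4, a receptor kinase known from testis, was not above background, at 4.71 and 4.80. Over these 4 signalling lists, 47 of 52 measured genes passed background, beside 60.3% of all named genes, and 40 the out-of-tissue threshold, beside 37.6%. None of the 4 lists is specific to adrenergic signalling.

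The genes that make noradrenaline and carry it gave little signal, apart from Th. Of 10 genes listed with those of its breakdown, 8 were measured and 3 were above background on both arrays, beside 60.3% of all named genes, with a median of 5.68. The count was 5 of 8 on replicate 1 alone. Dopamine beta-hydroxylase (Dbh), which turns dopamine into noradrenaline, stood at 5.11 and 4.80, and the noradrenaline transporter Slc6a2 at 4.98 and 5.03, both under background on both arrays. These are also the measured markers of noradrenergic neurons, of which 0 of 2 passed. Tyrosine hydroxylase (Th), the first step of both catecholamines, passed background at 7.05 and 7.05 but lay under the out-of-tissue threshold of 7.29 and 7.15. The others that passed background were the monoamine oxidases Maoa, at 8.005 on average, and Maob, at 7.57 and 7.44, which also break down other amines. Maoa and Maob were the 2 of 8 genes that passed the out-of-tissue threshold, beside 37.6% of all named genes. Slc18a2 and Pnmt exceeded the threshold on replicate 1 only, and Ddc on replicate 2 only.

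Adrenergic receptors are also known from glia, vessels and fat, and markers of these cells were measured beside them. All 11 neuronal, excitatory and inhibitory markers passed both the background and the out-of-tissue threshold by the mean of their probe sets, from Gad1, at 8.78 and 8.91, to Snap25, at 13.69 and 13.70. All 6 astrocyte, 3 measured oligodendrocyte, 3 precursor, 5 microglia, 4 endothelial and 5 mural cell markers passed background, as did 60.3% of all named genes, and their medians were 7.61, 8.17, 7.04, 6.71, 6.41 and 6.96 in that order. The stricter out-of-tissue level was passed by 4, 2, 1, 2, 0 and 1 of them and by 37.6% of all named genes. The astrocyte markers Gfap and Aqp4, at 6.65 and 6.68 and at 6.92 and 6.94, did not pass it. The 4 astrocyte markers that did were Slc1a2, at 9.54 and 9.48, Slc1a3, at 8.67 and 8.60, Gja1, at 7.82 and 7.81, and Aldh1l1, at 7.50 and 7.30. Among the mural markers, Rgs5 passed background by the mean of probe sets averaging 5.345 and 8.565, the lower of which lay under background. Adipocyte genes, relevant to beta-3 receptors, passed background in 3 of 6 cases, not far from the 60.3% of all named genes, with Adipoq at 3.99 and 3.74 and Ucp1 at 4.89 and 4.89 under it and Plin1 at 5.87 and 5.85 over it, and 0 of 6 passed the out-of-tissue threshold. Whether Adra1b and Adra2c messengers came from Drd2-expressing neurons or from the other cells whose markers gave signal was not tested, since no unprecipitated or mock sample was analysed here.

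**Figure D3:**
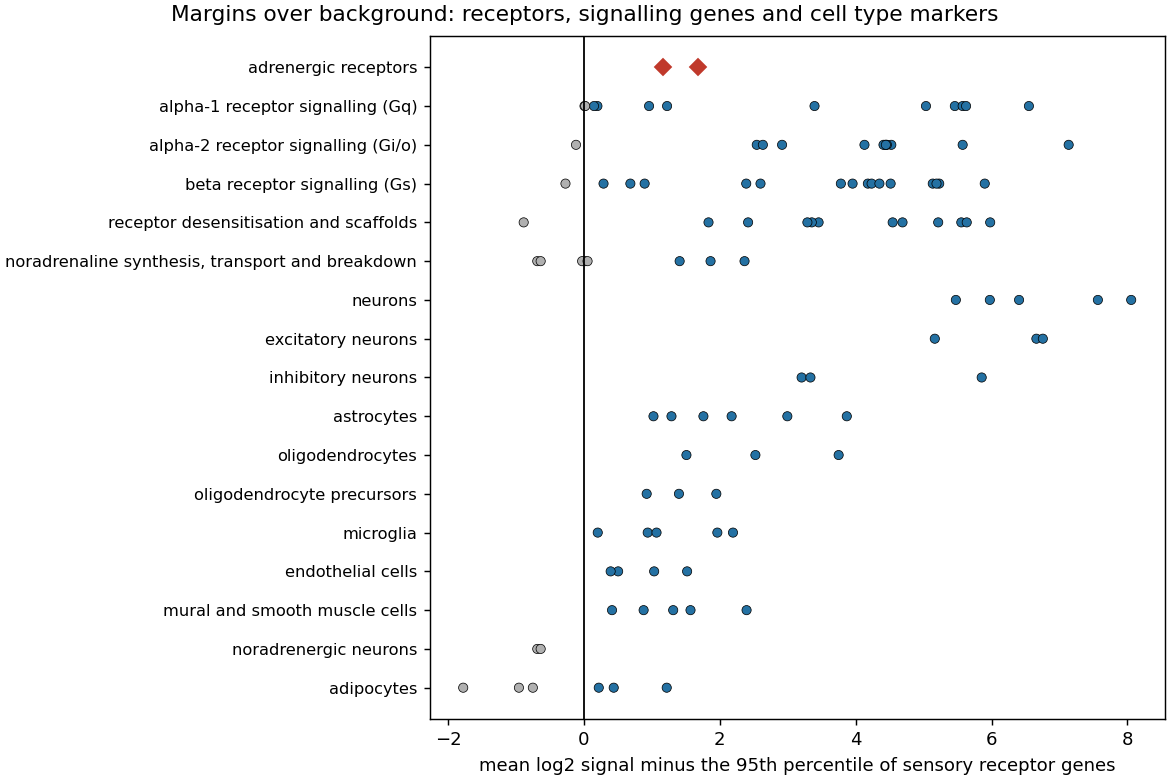
Margin of each measured gene over background (x axis, log2 signal minus the 95th percentile of sensory receptor genes, mean of both arrays) by list (y axis). Diamonds are Adra2c at 1.17 and Adra1b at 1.67, blue points are above background on both arrays and grey points are not. All neuron, excitatory and inhibitory neuron markers lie right of 0, and both measured markers of noradrenergic neurons lie left of it.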

How the data were processed

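The submitters' labels describe RNA from precipitated ribosomes, taken with Trizol and a column and labelled with the Affymetrix WT Plus kit. The deposited table holds 1 log2 value per probe set and array, the log base being inferred from the values. How background was corrected, how probes were summarised and normalized, and the genome build, were not given in the sources used here. Of 34472 probe sets, 23521 named 1 gene in the platform annotation, 1814 named several and 9137 are unnamed here. Probe sets of a gene were averaged, in Python with pandas. The members and lists were chosen with earlier results of these data known. Named were all members, Drd2, the first 3 measured genes of the signalling, noradrenaline and adipocyte lists, and genes on the other side of background from most of their list. Other markers, Kcnj3, Rgs2, Slc18a2, Pnmt and Ddc go beyond this rule and were chosen with their values known. P-values are not reported, since the arrays are technical replicates of 1 group, and their number limits precision. Scanner files were not used here, and listed genes without a value here are not reported. Alternatives covered the threshold, the probe set used, quantile normalization and single arrays.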

Additional observations from a re-analysis of the deposited data

How the results depend on the processing

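Both receptors stayed above background under quantile normalization, at the median of all probe sets and at the threshold over single probe sets. They also did so with the highest probe set of each gene, with genes of a single probe set alone and on each array alone. These last alternatives say little, because each receptor had 1 probe set, so the choice of probe set could move only the threshold. Passing on each array alone followed from the rule, which asks for both arrays. The average margin of Adra1b fell from 1.67 to 0.67 at the 99th percentile of sensory receptor genes and to 0.10 at the out-of-tissue threshold, and was 0.91 at that threshold without Odf1 and Acta1. That of Adra2c fell from 1.17 to 0.17 at the 99th percentile and to 1.005 at the median of all probe sets, was -0.41 at the out-of-tissue threshold and 0.40 without Odf1 and Acta1. The number of receptors above background was 1 at the out-of-tissue threshold and 2 under each other alternative. On single arrays the margins were 1.55 to 1.79 for Adra1b and 1.12 to 1.21 for Adra2c. Each higher threshold passes fewer genes by construction. Of 160 counts for single lists under the alternatives, 147 stayed within 1.5 times the reported count. This share says little of robustness, since a count on 1 array alone cannot fall below the count on both. The limit of 1.5 times also took in drops, such as astrocyte markers from 6 to 4 at the out-of-tissue threshold. The alpha-1 list likewise fell from 10 to 7 at the 99th percentile. Most of the 13 that moved were counts of adipocyte, endothelial, microglia, mural and precursor markers at raised thresholds. The others were the alpha-1 list at the out-of-tissue threshold and the noradrenaline list on replicate 1 alone. The alternatives without Odf1 and Acta1 and over single probe sets were chosen after seeing the data. No paired analysis was possible because there is 1 group. Since detection calls were not used here, signal near the thresholds cannot be read as presence or absence.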
